A study of Mus musculus with 15 samples.

Results

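The hair keratins and keratin-associated proteins are the genes that build the hair shaft and the sheath around it. They were chosen by gene symbol: every symbol that starts with Krtap, and the keratins Krt25 to Krt28, Krt31 to Krt36 with their a and b forms, Krt71 to Krt75 and Krt81 to Krt87, with at least 1 CPM (counts scaled to library size, with TMM factors from edgeR) in at least 1 library. Of 30281 named genes, 77 symbols matched and 76 genes reached that level. Krtap13, the symbol that did not, was at most at 0.0559 CPM, and the genes just inside the limit were Krt74, Krtap20-2 and Krtap29-1, with 8.80, 9.38 and 12.7 CPM in their highest library. All 76 passed the filter on low counts that left 17136 genes for testing. The genes lie on few chromosomes: per RefSeq (GRCm38.p6), 34 are on chromosome 11, 22 on chromosome 16, 11 on chromosome 15, 5 on chromosome 7, 2 on chromosome 10 and 1 on chromosome 1, and Krtap19-9a had no entry.

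RNA was sequenced from C57BL/6 mouse skin, cleaned of muscle and fat, at day 0, 1, 3, 5 and 7 of a wounding course, as 15 libraries, 3 at each time. The labels carry the wound as the stress in every library, day 0 included, and name no other treatment or genotype. The labels give neither the animal nor the body site behind a library, so the spread that a p-value is read against may be technical. In whole skin, fewer cells of a type and less RNA per cell cannot be told apart.

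As background, a hair grows from dividing matrix cells at the base of a follicle, and the structural genes are switched on in order as these cells move up and harden. Type I and type II hair keratins pair into the filaments of the shaft. Keratin-associated proteins, small proteins rich in cysteine or in glycine and tyrosine, fill the space between the filaments and are crosslinked to them. A separate set of keratins builds the inner root sheath, the sleeve that moulds the growing shaft. Mouse follicles pass through cycles of growth, regression and rest, and shaft and sheath genes are known for high expression in the growth phase.

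The summed level of the 76 genes differed 876-fold between the highest and the lowest library. The genes took 0.00633%, 0.0371% and 0.294% of the TMM-scaled counts in day 0 replicates 1, 2 and 3, and 0.00550%, 0.0851% and 0.195% in those of day 1. At day 3 the shares were 0.00495%, 0.00846% and 0.0238%, at day 5 they were 0.118%, 3.00% and 0.00483%, and at day 7 they were 0.0616%, 0.0547% and 4.23%. Day 7 replicate 3 and day 5 replicate 2 stood above the other 13 libraries, day 0 replicate 3 came next, and 1 library of each of day 0, 1, 3 and 5 lay within 0.00483% to 0.00633%. The lowest and the second highest of all 15 libraries were both taken at day 5. Counting error was small against this spread, since the lowest library held 2452 counts of these genes and the highest 2186011, in library totals of 38062562 to 60450396. As a share of the plain library total, 0.00473% (95% Wilson interval 0.00455% to 0.00492%, counting error only) of day 5 replicate 3 belonged to these genes.

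**Figure D1:**
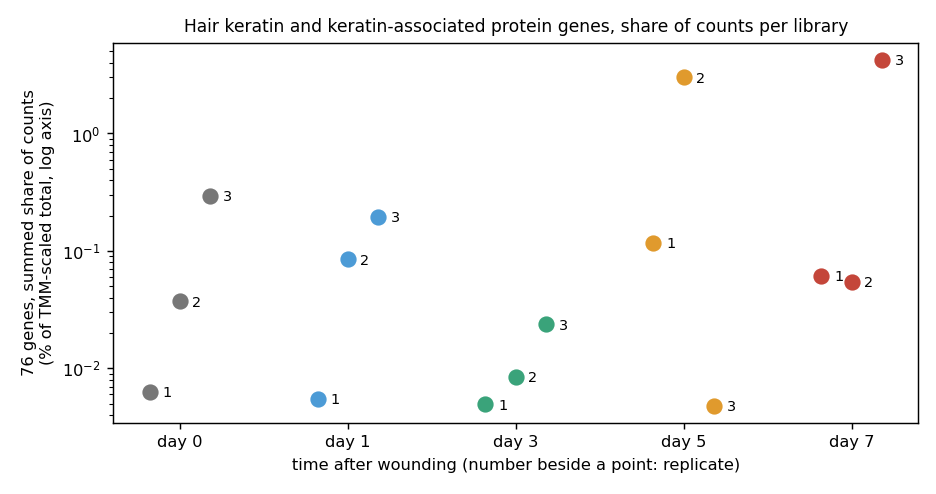
Summed share of counts of the 76 hair keratin and keratin-associated protein genes in each of the 15 libraries, in percent of the TMM-scaled total on a log axis, by time; each point is 1 library and the number beside it is its replicate. Day 7 replicate 3 (4.23%) and day 5 replicate 2 (3.00%) lie above the rest, and the other libraries of those times lie between 0.00483% and 0.118%.

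Nearly every gene followed the sum. Day 7 replicate 3 was the highest library for 73 of the 76 genes (18.7% of all genes tested have their highest value there) and day 5 replicate 2 for the other 3, Krt32, Krt74 and Krt82 (background 8.34%). Both libraries lay above all 13 others in 75 of the 76 genes, against 14.6% of all genes tested, the exception being Krtap20-2. For 74 genes both were at least 4-fold above the highest of the others, while 136 of 13310 genes outside the set that reach 5 CPM had such a gap. Krt74 and Krtap29-1 reached 1 CPM only in day 5 replicate 2 and day 7 replicate 3 (at most 0.854 and 0.973 CPM elsewhere). The limit of 1 CPM thus set their place in these counts in advance. Day 0 replicate 3 was the third highest library in 65 of the 76 (background 8.31%) and day 1 replicate 3 in 10. Of the 66 genes with counts in every library, the fold between the highest and the lowest library ran from 42.8 (Krt75) to 12321 (Krtap9-1). Its median was 2965. Krtap9-1 held 0.0197 CPM in its lowest library, and only 7 of the 76 genes kept 1 CPM or more in theirs. The largest folds thus rest on few counts and are uncertain. The Spearman correlation over 15 libraries between a gene and the sum of the rest had a median of 0.979 and was 0.9 or more in 71 genes, which is a description of libraries that share these 2 high values.

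**Figure D2:**
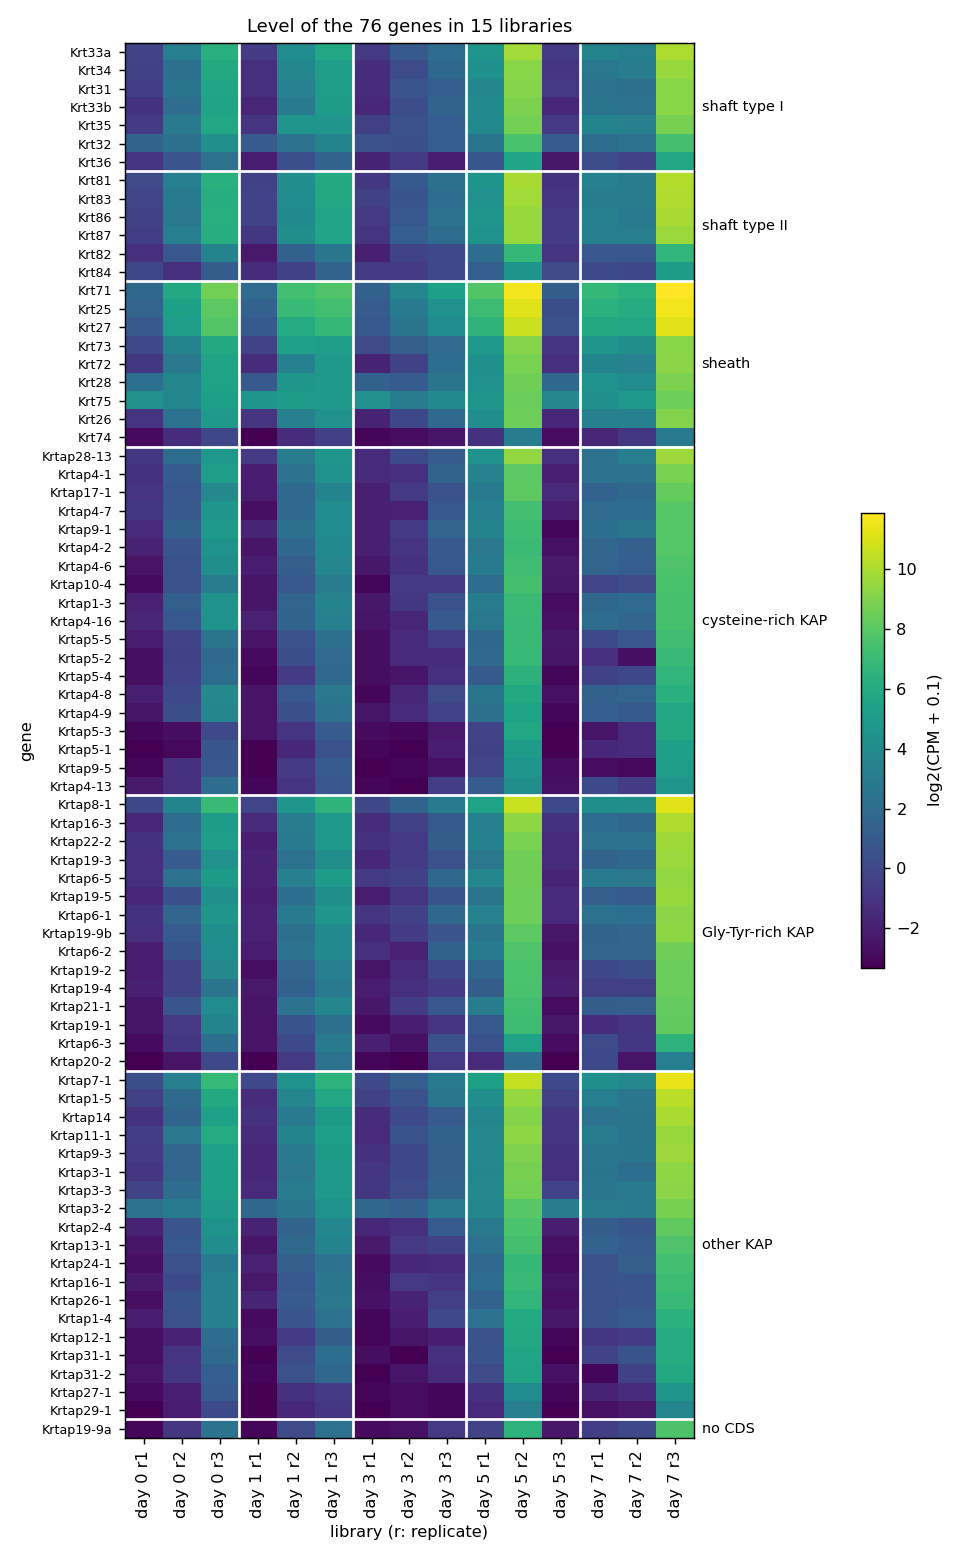
Level of each of the 76 genes (rows, by class and mean level) in the 15 libraries (columns, by time and replicate), as log2(CPM + 0.1). The columns of day 5 replicate 2 and day 7 replicate 3 are bright in every class, those of day 0 replicate 3 and day 1 replicate 3 are intermediate, and Krt75 and Krtap3-2 keep a level of 8.56 and 2.46 CPM or more in the darkest columns.

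Within each time the 3 libraries differed more for these genes than for others. With 0.1 CPM added, the median fold between the highest and the lowest library of a time was 60.2 at day 0, 50.3 at day 1, 5.43 at day 3, 821 at day 5 and 110 at day 7, against 1.22 to 1.43 over all genes tested. The biological coefficient of variation that edgeR fitted per gene had a median of 165% over the 76 genes and of 19.8% over all genes. The mean share was 0.112% ± 0.158 at day 0, 0.0952% ± 0.0952 at day 1, 0.0124% ± 0.0100 at day 3, 1.04% ± 1.70 at day 5 and 1.45% ± 2.41 at day 7 (SD, n = 3 each), so at day 0, 5 and 7 the SD exceeded the mean.

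Krt71, Krt25 and Krt27 of the inner root sheath had the highest mean levels among the keratins, with 551, 414 and 312 CPM, and the other 5 inner root sheath keratins lay below the strongest shaft keratin, Krt81, with 151 CPM. Krt25, Krt27, Krt28 and Krt71 are made in the layers of the inner root sheath, Krt26, Krt72 and Krt73 in its cuticle, and Krt74, in human, in its Huxley layer. Krt71 was at 3.41, 58.9 and 405 CPM at day 0, 3.81, 153 and 211 at day 1, 2.56, 11.9 and 38.8 at day 3, 216, 3162 and 2.11 at day 5, and 113, 82.8 and 3794 at day 7. Krt25, its type I partner, was at 3.08, 40.1 and 270.5 CPM at day 0, 2.69, 121 and 155 at day 1, 1.94, 7.96 and 20.95 at day 3, 139, 2292 and 1.16 at day 5, and 83.7, 69.6 and 3004 at day 7. Krt27 was at 1.81, 35.5 and 227 CPM at day 0, 1.89, 64.5 and 113 at day 1, 1.75, 5.73 and 16.6 at day 3, 96.7, 1645 and 1.26 at day 5, and 61.2, 53.2 and 2353 at day 7. In all 3 genes the day 0, 1 and 5 libraries overlapped widely, and the lowest libraries still held 1.16 CPM or more. Krt73, Krt72, Krt28 and Krt26 averaged 92.7, 81.5, 69.8 and 65.9 CPM, and Krt74, which GENCODE lists as a processed transcript with no coding sequence, reached 8.80 CPM.

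Krt75, a type II keratin of the companion layer and the medulla, had the narrowest range. It was at 20.2, 12.8 and 40.3 CPM at day 0, 25.1, 33.3 and 29.7 at day 1, 20.3, 8.56 and 14.69 at day 3, 24.5, 339 and 14.1 at day 5, and 19.9, 29.0 and 366 at day 7. The other 13 libraries thus lay between 8.56 and 40.3 CPM. Over all 15 libraries, the Spearman correlation of Krt75 with the sum of the rest of the set was 0.70. That of each inner root sheath keratin was 0.932 or more. The ratio of Krt75 to Krt71 was 5.93 to 7.93 in the 4 libraries with the lowest sums and 0.0965 to 0.717 in the other 11.

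The type I shaft keratins, one partner of each filament of the hair shaft, ranged from 0.0984 CPM, in Krt36, to 1051 CPM, in Krt33a. Krt31, Krt33a, Krt33b and Krt34 belong to the cortex, Krt35 to the matrix and cuticle and Krt32 to the cuticle, and Krt36 is known in human from nail and tongue. Krt33a was at 0.783, 8.98 and 80.5 CPM at day 0, 0.553, 17.03 and 54.4 at day 1, 0.488, 1.86 and 4.16 at day 3, 24.8, 866 and 0.492 at day 5, and 11.6, 9.31 and 1051 at day 7. Krt34 was at 0.690, 4.81 and 59.4 CPM at day 0, 0.339, 12.4 and 35.5 at day 1, 0.303, 1.02 and 3.33 at day 3, 20.03, 575 and 0.433 at day 5, and 6.81, 8.37 and 744 at day 7. Krt31 was at 0.615, 6.05 and 51.1 CPM at day 0, 0.339, 10.6 and 36.7 at day 1, 0.286, 1.49 and 2.24 at day 3, 13.1, 568 and 0.472 at day 5, and 5.26, 4.75 and 581 at day 7. At day 3 all 3 libraries of each of these genes were at 4.16 CPM or lower, a level that 1 library each of day 0, 1 and 5 also had. Krt33b and Krt35 had the same low libraries and reached 571 and 429 CPM, while Krt32 kept 1.21 CPM in its lowest library and Krt36 was the weakest of the 7, with 53.6 CPM in its highest. Counted in 31-base words, Krt34, Krt31, Krt33b and Krt33a share 42.0%, 38.9%, 36.4% and 28.9% of their transcripts with other genes. Their own values are therefore uncertain.

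Among the type II shaft keratins, Krt81, Krt83, Krt86 and Krt87 are cortex keratins and Krt82 a cuticle keratin. Krt81 was at 1.01, 9.11 and 81.4 CPM at day 0, 0.660, 17.6 and 61.3 at day 1, 0.454, 1.86 and 4.88 at day 3, 23.7, 939 and 0.374 at day 5, and 10.2, 8.66 and 1106 at day 7. Krt83 was at 0.820, 7.77 and 71.7 CPM at day 0, 0.731, 16.6 and 57.7 at day 1, 0.690, 1.47 and 4.20 at day 3, 20.6, 865 and 0.394 at day 5, and 8.77, 8.66 and 1064 at day 7. Krt86 was at 0.708, 6.70 and 73.96 CPM at day 0, 0.784, 14.6 and 52.1 at day 1, 0.471, 1.76 and 5.08 at day 3, 24.3, 752 and 0.512 at day 5, and 9.99, 8.05 and 957 at day 7. Krt86 shares 49.97% of its transcript, counted in 31-base words, with other genes, most with Krt81. Krt81 and Krt83 share 44.6% and 37.4%, each most with Krt86. The 3 genes gave nearly the same profile, with 17.6 CPM or lower in day 1 replicate 2 and 24.3 CPM or lower in day 5 replicate 1. The part of shared reads in that likeness was not tested. Krt87 shares 52.4% of such words, most with Gm49425, so its own value and those of Krt81, Krt83 and Krt86 are uncertain. Krt84, a keratin known in human from the tongue rather than from hair, reached 32.7 CPM and had the lowest correlation with the rest of the set, 0.693.

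The 54 keratin-associated protein genes were split by the codons of their coding sequence. In 19 more than 30% of the codons were for cysteine, and in another 15 at least 35% were for glycine or tyrosine. A further 19 had neither, and Krtap19-9a, a processed pseudogene in GENCODE, had no coding sequence. The cysteine limit was applied first, so Krtap28-13, Krtap5-3 and Krtap5-2, which also met the other limit, count as cysteine-rich. Median transcript lengths were 984 bases in the cysteine-rich, 534 in the glycine-tyrosine-rich and 856 in the other class, against 1664 and 2037 in type I and type II shaft keratins and 1989 in sheath keratins.

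The glycine-tyrosine-rich class holds Krtap8-1, Krtap16-3, Krtap20-2, Krtap21-1, Krtap22-2 with the 4 genes of the Krtap6 family and 6 of the Krtap19 family, proteins of the hair cortex. Krtap8-1, with 61 codons, was at 0.876, 11.49 and 127 CPM at day 0, 0.820, 26.6 and 96.7 at day 1, 0.892, 2.87 and 7.49 at day 3, 45.7, 1540.4 and 0.905 at day 5, and 19.3, 18.4 and 2376 at day 7. Krtap16-3 was at 0.224, 4.07 and 34.0 CPM at day 0, 0.267, 8.73 and 28.8 at day 1, 0.303, 0.676 and 1.86 at day 3, 9.57, 619 and 0.374 at day 5, and 4.06, 3.46 and 1098 at day 7. Krtap22-2 was at 0.373, 4.91 and 35.3 CPM at day 0, 0.143, 7.99 and 28.6 at day 1, 0.353, 0.512 and 2.10 at day 3, 10, 458 and 0.256 at day 5, and 5.43, 5.39 and 838 at day 7. Day 7 replicate 3 exceeded day 5 replicate 2 in each, by 1.54, 1.77 and 1.83 times. Krtap20-2 was the weakest, with 9.38 CPM in day 7 replicate 3, 4.19 CPM in day 5 replicate 2 and 4.99 CPM in day 1 replicate 3, and 0 counts in 4 libraries.

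The class with neither composition holds Krtap1-4, Krtap1-5, Krtap2-4, the 3 genes of the Krtap3 family, Krtap9-3, Krtap11-1, Krtap12-1, Krtap13-1, Krtap14, Krtap16-1, Krtap24-1, Krtap26-1, Krtap27-1, Krtap29-1, Krtap31-1 and Krtap31-2, many of them high-sulfur proteins of the cortex. It also holds Krtap7-1, whose 29.9% of glycine and tyrosine codons lies under the limit of 35%. Krtap7-1 was at 1.17, 9.74 and 116 CPM at day 0, 0.945, 21.9 and 92.1 at day 1, 0.959, 2.37 and 7.53 at day 3, 40.2, 1518 and 0.984 at day 5, and 18.9, 14.5 and 2710.4 at day 7. Krtap1-5 was at 0.690, 3.74 and 60.03 CPM at day 0, 0.285, 12.1 and 53.4 at day 1, 0.656, 1.27 and 6.26 at day 3, 18.4, 725 and 0.630 at day 5, and 9.48, 6.30 and 1294 at day 7. Krtap14 was at 0.354, 2.83 and 41.5 CPM at day 0, 0.356, 7.28 and 30.6 at day 1, 0.286, 0.942 and 1.98 at day 3, 12.6, 541 and 0.433 at day 5, and 5.22, 5.63 and 982 at day 7. All 3 were at 1.17 CPM or lower in the 4 libraries with the lowest sums. Krtap3-2 differed, with 2.46 to 28.7 CPM in the other 13 libraries and a correlation of 0.768 with the rest.

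The cysteine-rich class holds the 8 genes of the Krtap4 family, the 5 of the Krtap5 family, Krtap1-3, Krtap9-1, Krtap9-5, Krtap10-4, Krtap17-1 and Krtap28-13, proteins of the hair cortex and cuticle. Krtap28-13 was at 0.447, 4.07 and 27.8 CPM at day 0, 0.499, 8.33 and 26.6 at day 1, 0.269, 0.983 and 1.94 at day 3, 21.7, 693 and 0.315 at day 5, and 5.32, 9.12 and 811 at day 7. Krtap4-1 was at 0.354, 2.02 and 34.6 CPM at day 0, 0.143, 5.44 and 22.8 at day 1, 0.269, 0.328 and 2.86 at day 3, 10.4, 262 and 0.157 at day 5, and 4.98, 5.26 and 450.4 at day 7. Krtap17-1 was at 0.410, 1.62 and 14.2 CPM at day 0, 0.125, 3.63 and 11.1 at day 1, 0.151, 0.512 and 1.29 at day 3, 7.32, 272 and 0.256 at day 5, and 2.63, 3.22 and 312 at day 7. All 3 were at 0.499 CPM or lower in the 4 libraries with the lowest sums. Krtap4-13, Krtap5-1, Krtap10-4 and Krtap4-8 share 89.8%, 71.3%, 55.2% and 53.5% of their 31-base words with other genes, most with Gm11554, Gm10013, Gm3285 and Gm11595 in that order, so their own values are uncertain. Among all 76 genes 12 share no such word, Krtap8-1, Krtap7-1, Krtap22-2, Krtap14 and Krtap17-1 among them.

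Per length, a pair of short keratin-associated proteins led on average. Averaged over libraries, Krtap8-1 had 497 CPM per kilobase of transcript and Krtap7-1 489, followed by Krtap22-2 with 255, Krt71 with 252, Krt25 with 208 and Krtap16-3 and Krt27 with 201 each. The strongest shaft keratins, Krt33a and Krt81, had 84.5 and 82.0 CPM per kilobase, and the strongest cysteine-rich gene, Krtap28-13, had 108.3. The order of the first pair differed between libraries: Krtap7-1 led in day 7 replicate 3 (4365 against 4140 CPM per kilobase of Krtap8-1), and Krtap8-1 led in day 5 replicate 2 (2684 against 2445 of Krtap7-1) and in day 0 replicate 3 (221 against 187). These neighbours in the order therefore do not hold apart across libraries. The pair did not lead in day 3 replicate 1, a library with a low sum. Krt75 came first there with 6.21 CPM per kilobase and Krtap3-2 second with 3.25. Krt28, Krtap8-1 and Krtap7-1 followed with 1.58, 1.55 and 1.54.

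Because the 76 genes moved together between libraries, the promoter of the gene with the highest mean level among those with an entry is shown for each class, as 250 bases before and 50 after the start from RefSeq (GRCm38.p6), 5′ to 3′ on the strand of the gene. Capitals mark matches on either strand to TATAAA (the TATA box), CTTTGAA, to which LEF and TCF factors bind, and AGATAA, to which GATA factors bind. The windows are chr15:101743048-101743347 for Krt71, chr11:100041505-100041804 for Krt34, chr15:101550610-101550909 for Krt82, chr16:89487903-89488202 for Krtap8-1, chr11:99580967-99581266 for Krtap1-5 and chr1:83060680-83060979 for Krtap28-13, the last on the forward strand and the others on the reverse strand.
Krt71: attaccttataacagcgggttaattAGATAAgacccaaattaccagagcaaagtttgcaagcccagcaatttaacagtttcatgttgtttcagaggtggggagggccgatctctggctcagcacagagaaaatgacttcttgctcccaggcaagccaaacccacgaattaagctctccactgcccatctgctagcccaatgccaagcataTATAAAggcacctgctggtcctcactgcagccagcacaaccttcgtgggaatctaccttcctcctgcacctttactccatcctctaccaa
Krt34: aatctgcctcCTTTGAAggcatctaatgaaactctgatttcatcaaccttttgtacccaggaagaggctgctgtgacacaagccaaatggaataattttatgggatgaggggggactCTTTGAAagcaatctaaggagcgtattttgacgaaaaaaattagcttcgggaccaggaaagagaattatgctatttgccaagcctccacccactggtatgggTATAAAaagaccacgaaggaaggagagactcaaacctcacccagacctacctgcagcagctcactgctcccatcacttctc
Krt82: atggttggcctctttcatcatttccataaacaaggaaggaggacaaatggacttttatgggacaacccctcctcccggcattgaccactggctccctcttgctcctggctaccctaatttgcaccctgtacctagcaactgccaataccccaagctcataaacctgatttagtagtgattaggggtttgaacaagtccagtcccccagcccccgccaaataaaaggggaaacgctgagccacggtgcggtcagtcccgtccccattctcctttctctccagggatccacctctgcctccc
Krtap8-1: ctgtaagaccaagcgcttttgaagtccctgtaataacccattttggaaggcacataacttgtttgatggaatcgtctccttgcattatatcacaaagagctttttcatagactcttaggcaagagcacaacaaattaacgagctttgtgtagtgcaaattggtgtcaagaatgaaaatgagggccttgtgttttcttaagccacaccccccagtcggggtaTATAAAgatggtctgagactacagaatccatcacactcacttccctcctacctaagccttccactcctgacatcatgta
Krtap1-5: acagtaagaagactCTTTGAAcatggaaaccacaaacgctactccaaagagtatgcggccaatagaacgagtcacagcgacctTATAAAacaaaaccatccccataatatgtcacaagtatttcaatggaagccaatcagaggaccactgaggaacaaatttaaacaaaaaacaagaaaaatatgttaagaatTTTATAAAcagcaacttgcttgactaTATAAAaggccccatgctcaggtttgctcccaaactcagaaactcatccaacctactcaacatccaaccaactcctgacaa
Krtap28-13: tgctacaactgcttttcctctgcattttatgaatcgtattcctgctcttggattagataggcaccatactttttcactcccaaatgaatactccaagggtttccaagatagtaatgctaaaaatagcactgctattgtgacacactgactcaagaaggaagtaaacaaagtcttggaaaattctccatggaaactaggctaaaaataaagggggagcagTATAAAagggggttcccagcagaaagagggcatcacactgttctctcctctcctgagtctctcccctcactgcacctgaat

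In 5 of these 6 a TATAAA stands on the forward strand within 50 bases before the start, and Krt82 holds none of the 3 motifs. In Krtap1-5 a match on the reverse strand overlaps one on the forward strand, printed as 1 run of capitals. Of the 76 genes 64 had an entry, and TATAAA was in 82.8% of their promoters against 13.6% of all 32851 promoters of the same length. Within 50 bases before the start on the forward strand it was in 67.2% of theirs and in 2.63% of all. CTTTGAA was in 20.3% against 5.14%, and AGATAA in 23.4% against 11.2%. The promoters were not matched for base composition, neighbouring copies of a family share sequence, and a match is only a match of letters.

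Against day 0, the quasi-likelihood test of edgeR, with p-values adjusted over all genes by Benjamini and Hochberg, called 0 of the 76 genes at day 1 (background: 7.58% of all genes tested were called), day 3 (0.788%), day 5 (0.502%) and day 7 (7.05%). None of the 76 reached an unadjusted p under 0.05 in these 4 comparisons, where 27%, 15.8%, 19.7% and 27.9% of all genes did. The lowest edgeR adjusted p among them was 0.516 at day 1, 0.473 at day 3, 0.280 at day 5 and 0.183 at day 7. The median log2 fold change of the 76 genes was -0.25, -3.46, 3.29 and 3.63 in the same order of days, and their median standard error lay between 2.30 and 2.62, against 0.199 or less over all genes. All 76 fold changes were below 0 at day 3 and above 0 at day 5 and day 7. The medians over all genes tested were within 0.02 of 0. The libraries of both times overlapped in each of the 76 genes except Krt32, which was wholly lower at day 3 (1 gene, background 12.4%). Of all 17136 genes tested, 3397 were wholly higher and 3084 wholly lower at day 1, and 2240 and 2124 at day 3. At day 5 these counts were 2109 and 2373, and at day 7 they were 2379 and 2622. Krt32 was at 2.95, 4.86 and 19.8 CPM at day 0, 1.94, 5.12 and 11.6 at day 1, 1.28, 1.21 and 2.24 at day 3, 5.86, 182 and 2.07 at day 5, and 4.10, 5.10 and 172 at day 7.

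The direction at day 5 and day 7 rested on 1 library each. Without day 5 replicate 2 and day 7 replicate 3, the median log2 fold change was -0.99 at day 5, -1.31 at day 7 and -3.45 at day 3. There edgeR called 0 of the 76 (background 1.77%, 4.54% and 4.03% in that order). An unadjusted edgeR p under 0.05 was reached by 6 of the 76 at day 3, with a lowest adjusted p of 0.106 (Krt32). It was reached by 4 for day 3 against day 1 and by 0 at day 5 and day 7. The size at day 3 rested on a day 0 library, since without day 0 replicate 3 that median was -0.75, still below 0. Krt71 averaged 1126 ± 1766 CPM at day 5 and 156 ± 218 CPM at day 0 (SD, n = 3 each), a log2 fold change of 2.85 ± 2.35 (SE, edgeR adjusted p = 0.502). Krt81 averaged 375 ± 633 CPM at day 7 and 30.5 ± 44.3 CPM at day 0, a log2 fold change of 3.62 ± 2.61 (edgeR adjusted p = 0.376). Krtap8-1 averaged 805 ± 1361 CPM at day 7 and 46.4 ± 69.9 CPM at day 0, a log2 fold change of 4.12 ± 2.71 (edgeR adjusted p = 0.335). With both libraries left out, these were -0.52 for Krt71 at day 5, and -1.70 for Krt81 and -1.30 for Krtap8-1 at day 7.

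Day 3 was the time with the lowest levels, and the comparison of day 7 with day 3, added after the values were seen, gave the largest fold changes. The median log2 fold change was 7.23 with a median standard error of 3.04, and day 7 lay wholly above day 3 in 64 of the 76 genes (background 14.6%). edgeR called 0 of the 76 (background 9.46%) with a lowest adjusted p of 0.102, while 74 had an unadjusted p under 0.05 (background 28.7%). Without day 5 replicate 2 and day 7 replicate 3 the median was 2.17. There edgeR called 0 of the 76 (background 9.16%) and gave 0 an unadjusted p under 0.05. Leaving out day 3 replicate 1 or day 3 replicate 2 also brought the 74 to 0, leaving out day 3 replicate 3 to 8, and leaving out day 7 replicate 3 alone to 0.

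Between neighbouring times the picture was alike. Day 3 against day 1 gave a median log2 fold change of -3.28 (-1.67 without day 1 replicate 3) and 0 genes called by edgeR (background 0.00584%), 0 with an unadjusted p under 0.05 (background 12.8%), and 1 gene, Krt75, wholly lower at day 3 (background 13.2%). Day 5 against day 3 gave a median of 6.90 and 0 called (background 0.0233%), with 62 at an unadjusted p under 0.05 (background 15.1%) and 2 genes, Krt84 and Krtap3-2, wholly higher at day 5 (background 9.72%). The count of 62 became 33 without day 1 replicate 2, 0 without day 3 replicate 1 or 2 or day 5 replicate 2, and 4 without day 3 replicate 3. Day 7 against day 5 gave a median of 0.40, 0 called (background 0.00584%) and 0 at an unadjusted p under 0.05 (background 9.17%). The F test over all times called 0 of the 76 (background 13.9%), with a lowest edgeR adjusted p of 0.145 and 0 at an unadjusted p under 0.05 (background 35.2%).

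DESeq2 gave no p-value for 54 of the 76 genes, as it does where 1 library's count is extreme for its group. Over all 17136 genes it gave one for 16980. Its calls therefore cover only hair genes without such a count and do not stand for all 76. The 22 with a p-value were the 8 inner root sheath keratins, Krt82, Krt84 and 12 keratin-associated proteins, mostly of the Krtap4 family. Of these DESeq2 called 21 for day 7 against day 3 (background 18.2%), 9 for day 5 against day 3 (background 2.96%) and 5 in its likelihood ratio test over all times (background 34.5%). The 21 were all but Krtap20-2, the 9 were Krt25, Krt26, Krt27, Krt28, Krt72, Krt73, Krt74, Krt82 and Krtap4-7, and the 5 were Krt26, Krt28, Krt73, Krt82 and Krt84. It called 0 in the other comparisons, where its background was 16.3% at day 1, 5.55% at day 3, 6.83% at day 5 and 16.6% at day 7 against day 0, 2.71% for day 3 against day 1 and 0.854% for day 7 against day 5. Weighting libraries by their quality with limma-voom, which gave day 5 replicate 2 a weight of 0.257 and day 7 replicate 3 one of 0.180, called 0 of the 76 in each of these comparisons.

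The make-up of the sum differed between libraries. Keratin-associated proteins took 54.2% of the summed CPM in day 7 replicate 3 and 47.2% in day 5 replicate 2, 40.3% in day 0 replicate 3 and 46.2% in day 1 replicate 3, and 20.4% to 38.8% in the other 11 libraries. Inner root sheath keratins took 26.8% and 29.6% in day 7 replicate 3 and day 5 replicate 2, 18.6% to 23.3% in the 4 libraries with the lowest sums and 30.4% to 53.0% in the other 9, so their share did not follow the size of the sum. Shaft keratins varied less, between 12.3% and 21.98%. Krt75 alone took 29.3% to 45.7% in the 4 libraries with the lowest sums and 0.866% and 1.13% in day 7 replicate 3 and day 5 replicate 2. The ratio of keratin-associated proteins to shaft keratins was 2.99 in day 7 replicate 3, the highest of all, and 2.15 in day 5 replicate 2, within the 1.59 to 2.48 of the other 13.

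**Figure D3:**
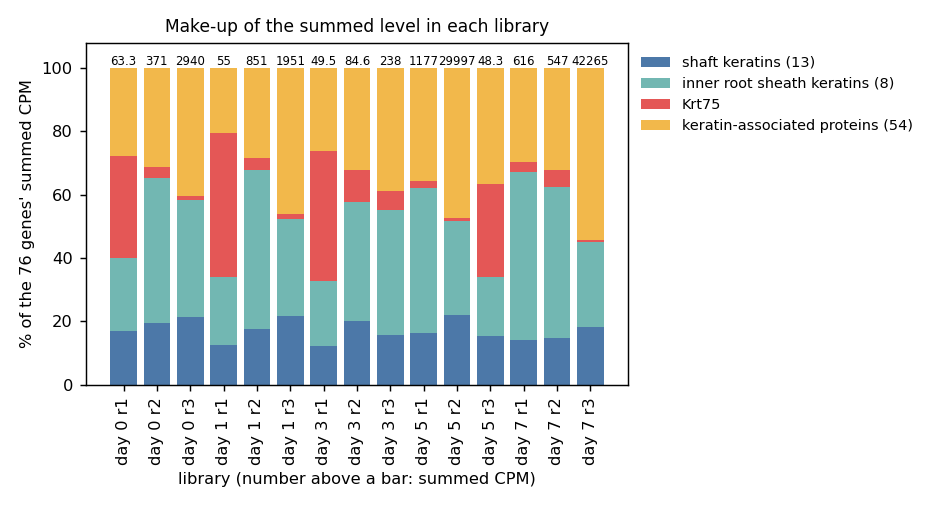
Make-up of the summed CPM of the 76 genes in each library (bars, by time and replicate) in percent: shaft keratins, inner root sheath keratins, Krt75 and keratin-associated proteins, with the summed CPM above each bar. Krt75 takes 29.3% to 45.7% in the 4 libraries with the lowest sums, and keratin-associated proteins take 54.2% in day 7 replicate 3.

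The 2 high libraries differed in the make-up of the set. The sum was 1.41 times higher in day 7 replicate 3 than in day 5 replicate 2, and the ratio per gene ran from 0.848 (Krt74) to 2.37 (Krtap19-9b), with a median of 1.35. Its median was 1.06 in type I shaft keratins, 1.20 in type II shaft keratins, 1.21 in sheath keratins with Krt75, 1.31 in cysteine-rich, 1.44 in other and 1.91 in glycine-tyrosine-rich keratin-associated proteins. All 15 genes of the glycine-tyrosine-rich class lay between 1.54 and 2.37, above each of the 22 keratins, which lay at 1.43 or lower. Krtap28-13, Krtap5-3 and Krtap5-2, with 42.0%, 39.3% and 36.0% of glycine and tyrosine codons, stood in the cysteine-rich class, which was assigned first. Their ratios were 1.17, 1.16 and 1.10, within the range of the keratins. Within the keratin-associated proteins the 5 genes of the Krtap5 family were at 1.10 to 1.19, the 8 of the Krtap4 family at 1.20 to 1.80 and the 7 of the Krtap19 family at 1.83 to 2.37. Each of these libraries is 1 sample, so the ratios have no replicate and no test.

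The ratio also went with the length and base composition of the transcripts. Across the 76 genes, which are not independent, its Spearman correlation was -0.69 with transcript length and -0.73 with GC content, and within the 54 keratin-associated proteins it was -0.63 and -0.75. Within the 22 keratins it was 0.13 and -0.12. Glycine-tyrosine-rich genes are the shortest class and have the lowest median GC content, 45.0% against 51.3% to 57.8% in the others with a coding sequence. The part of length and GC content in the class difference was not tested.

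**Figure D4:**
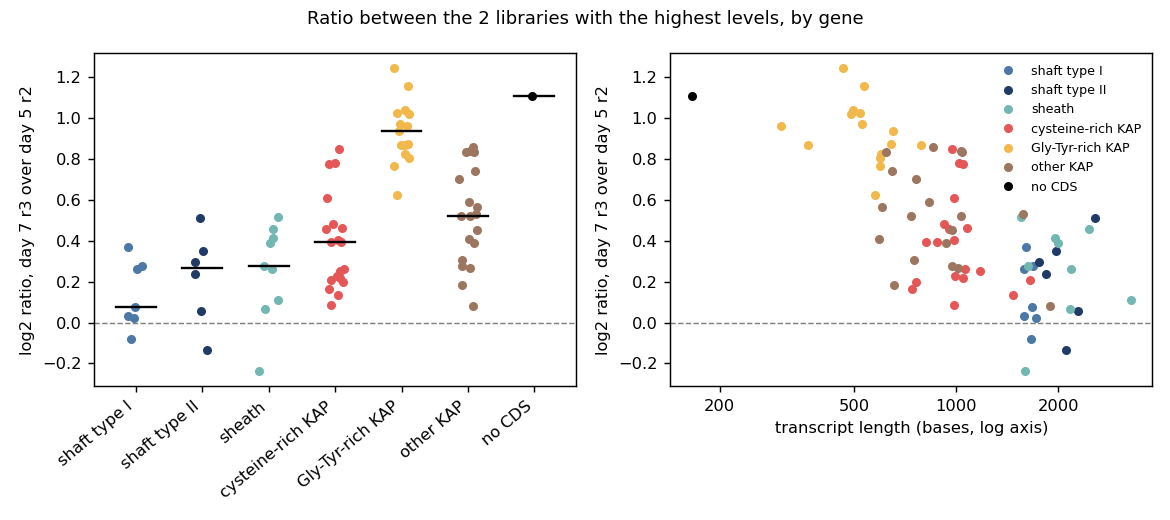
Ratio of day 7 replicate 3 to day 5 replicate 2 on the log2 scale for each of the 76 genes, by class (left, line: median) and against transcript length on a log axis (right). The glycine-tyrosine-rich keratin-associated proteins lie highest, with a median ratio of 1.91, and type I shaft keratins lowest, with 1.06.

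Set against day 0 replicate 3, the highest of the other 13, day 7 replicate 3 was 14.4 times and day 5 replicate 2 10.2 times higher in the sum, and all 76 genes were higher in both. Per gene, day 5 replicate 2 over day 0 replicate 3 ran from 3.61 (Krtap4-9) to 56.2 (Krtap5-3). The Krtap5 family, of the hair cuticle in human, had the widest gap among families of 3 or more genes, with a median of 22.02, and the Krtap4 family the narrowest, with 5.96. The ratio of day 1 replicate 3 to day 1 replicate 2 had a median of 1.56 in inner root sheath keratins, 3.19 in shaft keratins and 3.64 in keratin-associated proteins. Among the same families, Krtap5 again had the highest median there, 4.97. The order below it was another one, with a median of 4.15 in the Krtap4 family and 3.27 in the Krtap19 family. Krt35, a keratin that appears early in shaft formation, had a ratio of 1.01 there, the lowest among shaft keratins. Krt35 over Krtap8-1 was 0.181 in day 7 replicate 3 and 0.274 in day 5 replicate 2, 0.256 in day 1 replicate 3 and 0.923 in day 1 replicate 2.

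Other genes of the growing follicle were high in the same libraries. In 14.6% of all genes tested, both day 7 replicate 3 and day 5 replicate 2 lay above the other 13 libraries. This held in 14 of 15 structural genes of shaft and sheath other than keratins, the exception being Gjb6. Their summed level was 12879 and 10294 CPM in day 7 replicate 3 and day 5 replicate 2, and 74.2 to 980 CPM in the others. Trichohyalin (Tchh), which crosslinks to keratin in the inner root sheath, was at 6029 and 5269 CPM in day 7 replicate 3 and day 5 replicate 2 and at 11.98 to 497 CPM elsewhere. Psors1c2, Mt4, Crym and Gjb6 had the smallest p of this list in the F test (edgeR adjusted p = 0.131, 0.145, 0.151 and 0.167), and 0 of the 15 were called in any comparison.

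Of 22 transcription factors and signals of the hair matrix, 21 had both libraries highest, the exception being Ptch1 (background 14.6%). Their sum was 1486 and 1476 CPM in day 7 replicate 3 and day 5 replicate 2, and 443 to 612 CPM in the others, a narrower gap than that of the structural genes. Shh, the hedgehog ligand of the matrix, was at 11.6 and 10.7 CPM there and at 0.317 to 4.94 CPM elsewhere, and Wnt10b, a ligand that promotes follicle growth, at 8.41 and 11.0 CPM and at 0.953 to 6.71 CPM elsewhere. Bmpr1a and Prdm1 were at 225 and 48.7 CPM in day 7 replicate 3, at 172 and 44.1 CPM in day 5 replicate 2 and at no more than 151 and 29.2 CPM elsewhere. edgeR called 1 of the 22, Bmpr1a, a receptor for BMP ligands, which was higher at day 7 than at day 0 with a log2 fold change of 0.64 (adjusted p = 0.0390, background 7.05%), and 0 in the other comparisons.

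Melanocytes pass pigment to the shaft in growing follicles. Of 12 pigment cell genes, 11 had both libraries highest, the exception being Sox10 (background 14.6%). Their sum was 661 and 537 CPM in day 7 replicate 3 and day 5 replicate 2 and 75.6 to 132 CPM elsewhere. Oca2, a melanosome transporter, was at 14.1 and 10.6 CPM there and at 0.774 CPM or lower elsewhere, Slc45a2 at 9.40 and 6.73 CPM and at 0.794 CPM or lower elsewhere, and Dct, an enzyme of melanin synthesis, at 181 and 148 CPM and at 6.76 to 31.8 CPM elsewhere. Kit, a receptor of pigment and mast cells, was at 19.8 and 22.4 CPM and at 11.6 to 18.4 CPM elsewhere. Oca2, Slc45a2 and Gpr143 had 0 counts in at least 1 library, and edgeR called 0 of the 12 in any comparison.

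Follicle parts outside the matrix followed less closely. Of 14 dermal papilla genes, 5 had both libraries highest (background 14.6%), Corin, Bmp4, Hhip, Wif1 and Sostdc1. Sostdc1 was at 42.6 and 49.2 CPM there and at 20.8 to 36.4 CPM elsewhere. Of the 14, edgeR called 4 in the F test over all times (background 13.9%), Fgf7, Crabp1, Rspo3 and Sostdc1. Fgf7, a growth factor for epithelium, was at 20.2 and 25.6 CPM there and at 17.9 to 59.96 CPM elsewhere (edgeR adjusted p = 0.000194). Against day 0 at day 7, edgeR called Crabp1 higher (log2 fold change 1.08) and Fgf7 lower (-0.44), and at day 1 it called both higher (1.54 and 0.95). Of 9 genes listed under bulge and resting follicle, 3 had both highest (background 14.6%), Sox9, Lhx2 and Fgf5. The F test called Sox9 (edgeR adjusted p = 0.0270), at 44.9 and 54.3 CPM and at 15.8 to 33.8 CPM elsewhere. Sox9 was also called higher at day 7 than at day 3 (log2 fold change 0.96). Cd34, a surface protein of bulge cells and vessels, was at 227 and 274 CPM there and at 234 to 780 CPM elsewhere. Of 10 sebaceous gland genes 0 had both highest (background 14.6%). Their sum was 2050 and 2898 CPM against 2648 to 5744 CPM elsewhere (Awat2 at 42.0 and 44.1 CPM against 29.7 to 133 CPM).

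Genes of the surrounding skin were present in every library. Of 10 epidermal keratins and envelope genes 2 had both libraries highest, Krt2 and Ivl (background 14.6%). Krt14, the basal keratin, was at 2312 and 2712 CPM there and at 923 to 5897 CPM elsewhere, with an edgeR adjusted p of 0.0275 in the F test. Of 4 stress keratins, Krt17 had both highest (background 14.6%), at 1237 and 1090 CPM and at 272 to 746 CPM elsewhere. Krt6a, Krt6b and Krt16 did not. Of 10 cell cycle genes 1 had both highest, Mki67 (background 14.6%). Mcm6 was called in the F test (edgeR adjusted p = 0.0424), at 70.5 and 64.1 CPM and at 38.4 to 93.1 CPM elsewhere.

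Muscle genes were lower in the same 2 libraries, and the sums of lists of other cell types were at or near the low end of their range. Skeletal muscle genes, 8 in all, summed to 2796 and 4141 CPM in day 7 replicate 3 and day 5 replicate 2, below the 6128 to 12224 CPM of the others (Acta1 at 744 and 1205 CPM against 1598 to 3634 CPM), and edgeR called Acta1 lower at day 7 than at day 0 (log2 fold change -1.19, adjusted p = 0.0497). Leukocyte genes summed to 650 and 569 CPM against 612 to 2173 CPM (Itgam at 53.2 and 60.7 CPM against 36.3 to 245 CPM). Fibroblast genes summed to 21371 and 20320 CPM against 19802 to 49554 CPM (Pdgfra at 104 and 111 CPM against 130 to 482 CPM). Adipocyte genes summed to 1213 and 1472 CPM against 1189 to 2695 CPM (Cfd at 277 and 456 CPM against 439 to 970 CPM). Fabp4 went the other way in both libraries, at 748 and 730 CPM against a median of 584 CPM elsewhere. It was the largest part of the adipocyte sum in both. The F test called 6 of the 8 leukocyte genes, 3 of the 8 fibroblast genes and 0 of the 8 in each of muscle and adipocyte (background 13.9%), and at day 7 against day 0 edgeR called the leukocyte genes Itgam and Cd68 lower (log2 fold changes -1.50 and -0.80). In each of these 4 lists of 8 genes, 0 genes had both libraries highest (background 14.6%), and no gene was at 0 in any library. Mitochondrial genes took 9.26% and 7.42% of the counts in day 7 replicate 3 and day 5 replicate 2, within the 5.29% to 9.44% of the others. The part of tissue make-up in the levels of the hair genes was not tested.

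**Figure D5:**
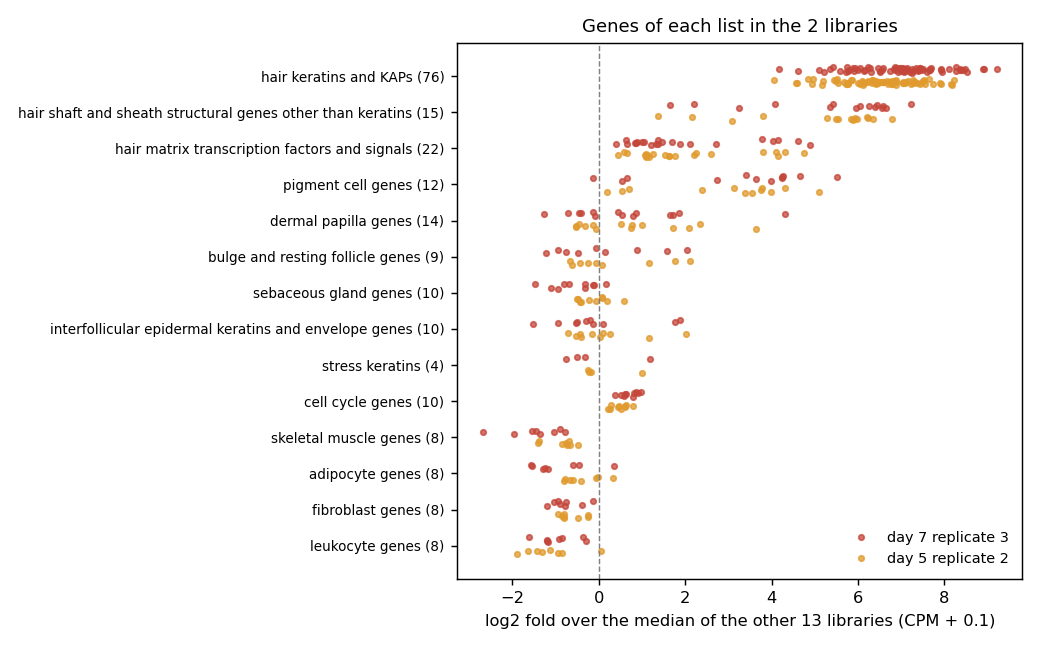
Log2 fold of day 7 replicate 3 (red) and day 5 replicate 2 (orange) over the median of the other 13 libraries, with 0.1 CPM added, for each gene (point) of the hair set and of 13 other lists. Hair keratins and keratin-associated proteins and the structural genes of shaft and sheath lie furthest to the right, matrix and pigment genes follow, and muscle genes lie to the left of 0.

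The genes outside the set whose level over the 15 libraries was most like the sum of the 76, among 13310 that reach 5 CPM, were Gm19402, Gprc5d, Tchh, S100a3, Krt40, Capn8, Gm11562, Gm11568, Gm2696, 4930553J12Rik, Crym, Gm10229, Gm11559, Padi3 and Prr9, with Spearman correlations of 0.986 to 0.996. Tchh, Gprc5d, S100a3, Crym, Padi3 and Prr9 also stand in the list of structural genes, and Krt40, a type I keratin, carries a number outside the rule. Of the 31-base words of Gm11562, Gm11559, Gm2696, Gm10229, Gm11568 and Gm19402, 46.6%, 41.5%, 35.4%, 34.3%, 33.8% and 21.4% are also found in the 76 genes, so reads may be shared between them and the part of that in their likeness was not tested. The share was 3.11% in Krt40, 0.0592% in Padi3 and 0 in the other 7. S100a3, a calcium-binding protein of the hair cuticle, reached 1231 and 1073 CPM in day 7 replicate 3 and day 5 replicate 2, while the other libraries held 0.825 to 95 CPM. 4930553J12Rik was at 2811 and 1387 CPM there and at 0.660 to 96.4 CPM elsewhere. Its ratio between the 2 libraries lay in the range of the glycine-tyrosine-rich class.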

How the data were processed

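Whole-skin mRNA libraries were sequenced on an Illumina instrument, per the labels' protocols. The deposited values are estimated counts per gene, whole numbers as deposited, and kallisto (version 0.43) is named in the submitters' processing notes. Genome build, annotation and strand setting: not given in the sources used here. Of 30307 rows, 26 with dates for gene names (0.155% to 0.179% of counts) were left out. edgeR (4.0.16, R 4.3.3) with filterByExpr (minimum count 10), TMM scaling and the quasi-likelihood test was fitted to 17136 genes and all 15 libraries, with Benjamini-Hochberg adjustment and a threshold of 0.05. Standard errors are the size of the log2 fold change over the square root of the F value of the edgeR test, so they differ between comparisons. The script was tested on simulated counts. Alternatives were DESeq2 (1.42.0), limma-voom (3.58.1), other scaling and filters, and leaving out libraries. Lengths, codons and shared 31-base words come from GENCODE M21 transcripts; a composition of RefSeq proteins had been planned, and codons were used in its place. Text names the 3 genes of each class with the highest mean CPM, up to 4 genes of each other list with the smallest F test p, and the 15 genes most like the sum. Krt75, Krt84, Krt32, Krtap3-2, Krtap20-2 and the genes at the ends of a range were named after their values were seen. The members and lists were chosen with earlier results of these data known. Wilson intervals cover counting error only.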

Additional observations from a re-analysis of the deposited data

How the results depend on the processing

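No hair gene was called by edgeR under any scaling, filter, replicate block or left-out library tried, nor by limma-voom. DESeq2 gave a p-value for only 22 hair genes, those in which it flagged no extreme count. Of these it called 21 for day 7 against day 3 (background 18.2%) and 9 for day 5 against day 3 (background 2.96%). Over all times it called 5 of the 22, a smaller share than the background of 34.5%. Median log2 fold changes under limma-voom were -1.26 (day 5 against day 0), 0.12 (day 7 against day 0), 3.57 (day 7 against day 3) and 2.17 (day 5 against day 3), where Krt71, Krt81 and Krtap8-1 were at -1.61, -1.87 and -1.20 at day 5 and Krt81 at -0.41 at day 7 against day 0. The cause was not tested. Without both day 5 replicate 2 and day 7 replicate 3, chosen after the data were seen, medians were -0.99, -1.31, 2.17, 2.42 (day 5 against day 3) and -0.28 (day 7 against day 5), and Krt71, Krt81 and Krtap8-1 were at -0.52, -1.34 and -0.99 at day 5 and at -0.67, -1.70 and -1.30 at day 7 against day 0.

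Leaving out 1 library at a time, medians ran from -1.73 to 2.39 (day 1 against day 0, turned by day 0 replicate 3 and day 1 replicate 1), -0.99 to 6.02 (day 5 against day 0, turned by day 5 replicate 2) and -1.31 to 6.48 (day 7 against day 0, turned by day 7 replicate 3), and from 2.19 to 8.38 (day 7 against day 3), 2.45 to 7.97 (day 5 against day 3) and -4.74 to 4.83 (day 7 against day 5, turned by day 7 replicate 3 and day 5 replicates 1 and 3). Against day 0, Krt71 ran from -0.52 to 5.20 at day 5 and -0.66 to 5.45 at day 7, Krt81 from -1.34 to 6.03 and -1.69 to 6.26, and Krtap8-1 from -0.99 to 6.45 and -1.30 to 7.07. Counts at an unadjusted p under 0.05 ran from 0 to 75 (day 7 against day 3) and 0 to 74 (day 5 against day 3).

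Over all genes tested, deviations from the mean of a time correlated at -0.81 to 0.52 between libraries with the same replicate number (30 pairs). Their median was 0.084, against -0.029 in the 60 other pairs. For the hair genes, replicate 3 had the highest share at day 0, 1, 3 and 7, and replicate 1 the lowest at day 0, 1 and 3. At day 5 replicate 2 was highest and replicate 3 lowest. With the replicate number as a block, 0 hair genes were called. The median was then 0.016 for day 1 against day 0 and -1.41 for day 7 against day 5. With 3 libraries per time and median standard errors above 2 on the log2 scale, changes of several fold were not detectable for most hair genes. For day 1 against day 0, Krt75 had the smallest standard error, 1.22.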
